A study of Mus musculus with 6 samples.

Results

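The genes described here are 10 members of the EGF and neuregulin signalling system, 6 ligand genes (*Egf*, *Hbegf*, *Areg*, *Tgfa*, *Nrg1* and *Nrg4*) and the 4 ErbB receptor genes (*Egfr*, *Erbb2*, *Erbb3* and *Erbb4*), out of 23997 gene symbols listed for each mouse. They were chosen by name from the family with earlier results of the same comparison known, in which *Egf* was lower in HrasG12V muscle. Their differences between genotypes are therefore given as a description. Counts of members past a test limit are only set beside the share of all genes, and nothing is read from them. Gastrocnemius, the large calf muscle, was taken from untreated 21-day-old littermates, and RNA of each muscle was sequenced as 1 library. The HrasG12V group (genotype HrasG12V/+, labelled Caggs-Cre+/HrasG12V/+) held mice 2276, 2278 and 2279, and the WT group (genotype Hras+/+, labelled Caggs-Cre-/HrasflG12V/+) held mice 2277, 2280 and 2281, so that n = 3 mice per genotype. Both groups descend from the floxed *Hras* allele, and the WT mice carry it unrecombined. The Cre was driven by the broadly active CAG promoter and the mutant allele was transcribed from the promoter of *Hras* itself, so nerve, vessel, immune and connective tissue of the HrasG12V mice carry the allele as well as the muscle fibers. The background was a mix of SWR/J, 129S1/SvImJ and C57BL/6J.

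ErbB receptors are receptor tyrosine kinases at the cell surface that act upstream of Ras. EGF, HB-EGF, amphiregulin and TGF-alpha bind the EGF receptor, and HB-EGF also binds ErbB4. Neuregulins bind ErbB4, and only some of them also bind ErbB3. ErbB2 binds no ligand and serves as partner, while ErbB3 has little kinase activity and signals through its partners. Most of these ligands are made as membrane proteins that proteases cut free. In muscle, neuregulin is known above all as a signal of nerve to Schwann cells, to the muscle spindle and to the nuclei under the neuromuscular junction. Nrg4 is known as a factor secreted by brown fat.

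Values are FPKM, in which the authors scaled the reads of each gene to its length and to the size of the library. Levels of different genes can be set side by side because FPKM are per length. Genes with a mean of at least 0.5 FPKM over the 6 mice (13359 genes) entered a comparison of log2(FPKM + 0.1) between genotypes with limma. Of the 10 members 6 reached that mean, from *Nrg4* at 1.5 FPKM upward, and 4 did not, of which *Tgfa* came closest with a mean of 0.353 FPKM. Log2 fold changes below are HrasG12V over WT on the log2(FPKM + 0.1) scale, which understates changes of low values.

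The libraries were not alike. Mouse 2276 had a summed FPKM of 814013, against 413020 to 547122 in the other 5. By Pearson correlation of log2 values across the genes tested, mouse 2276 was closer to the 3 WT mice (r = 0.893 to 0.903) than to mice 2278 and 2279 of its own genotype (0.844 and 0.852). Mice 2278 and 2279 lay apart from the other 4, at 0.878 to each other and 0.851 to 0.862 to the WT mice. The 4 B cell markers gave sums of 69.4 and 54.7 FPKM for mice 2278 and 2279, against 0.521 to 1.30 for the other 4, and the 6 T cell markers gave 24.3 and 32.7 against 0.796 to 1.0. Transcripts of 4 Y linked genes summed to 0.170 FPKM in WT mouse 2277 and 0.0922 in HrasG12V mouse 2276 and to 70.7 to 80.0 in the other 4, so each genotype held 1 mouse without them. Of the skeletal muscle markers, *Tnni2* (fast troponin I) was at 5442 to 17112 FPKM and *Des* (desmin) at 635 to 1804 FPKM in every library, whereas *Acta1* and *Myh4*, among the most abundant transcripts of this muscle, were listed at 0 in all 6. Other zeros differed between libraries. *Tnnt3* was listed at 0 in mouse 2276 alone, against 6893 to 10419 FPKM in the other mice. *Ckm* was at 7165 FPKM in mouse 2278 and listed at 0 in the others. *Myh1* was listed at 0 in WT mice 2277 and 2280 only. An exact 0 may thus be a failed estimate, also in single libraries. A gene with such a value is described only as listed at 0. *Hras* itself was at 16 to 58.8 FPKM in HrasG12V and at 36.0 to 51.8 FPKM in WT muscle. Its FPKM sums both alleles and does not check the genotype.

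In WT muscle the members fell into 3 tiers. *Egf* (12.7 FPKM), *Hbegf* (10.3) and *Egfr* (6.61) formed the upper tier, *Erbb3* (2.16), *Erbb2* (1.74) and *Nrg4* (1.45) the middle one, and *Tgfa*, *Areg*, *Erbb4* and *Nrg1* lay at or below 0.288 FPKM in each WT mouse. Within the upper tier *Egf* exceeded *Hbegf* in 2 of the 3 WT mice only, and their ranges overlapped, while both stood above *Egfr* in each of the 3. In the middle tier the ranges of *Erbb2* and *Nrg4* overlapped, and *Erbb3* stood above *Erbb2* in all 3 WT mice. In HrasG12V muscle *Hbegf* (10.5 FPKM) came before *Egf* (7.44) on average, again in 2 of 3 mice and with overlapping ranges, and *Erbb2*, *Erbb3* and *Nrg4* overlapped each other. The 5 remaining ligand genes of the family (*Btc*, *Ereg*, *Epgn*, *Nrg2* and *Nrg3*) were all below a mean of 0.5 FPKM, so that *Egf*, *Hbegf* and *Nrg4* were the ligand genes with a mean above that level in this muscle.

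**Figure D1:**
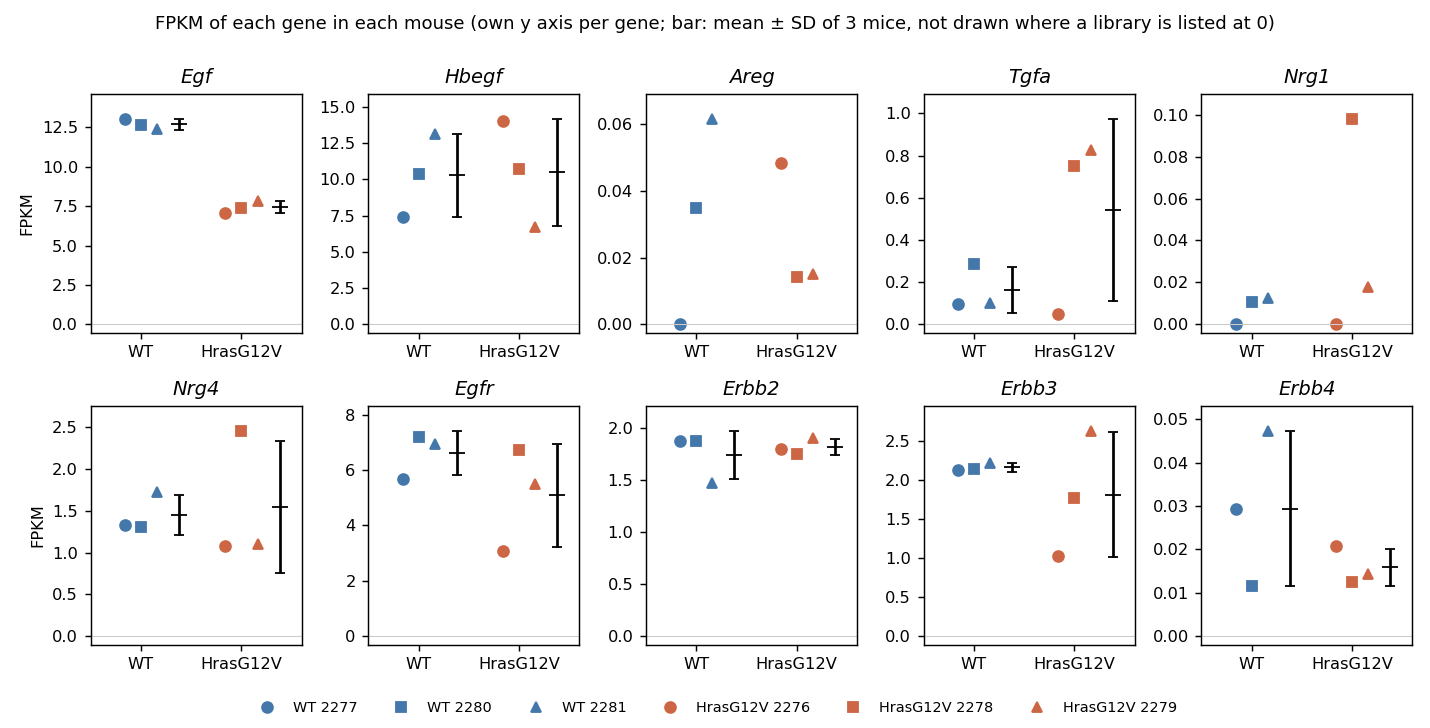
FPKM (y axis, linear, a separate scale for each gene) of the 10 genes in each of the 3 WT and 3 HrasG12V mice, 1 symbol per mouse, with the mean and SD of the 3 mice at the right of each group where no library is listed at 0. *Egf* is at 12.4 to 13.0 FPKM in WT and 7.09 to 7.83 in HrasG12V mice, and in the other 9 genes the genotypes overlap.

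*Egf* encodes epidermal growth factor, which is cut from a large membrane-bound precursor. Its minus-strand gene occupies positions 129677565 to 129755316 of chromosome 3 in GRCm38 (GENCODE vM21, 9 annotated transcripts). It was at 13.0, 12.7 and 12.4 FPKM in mice 2277, 2280 and 2281 of the WT group and at 7.09, 7.39 and 7.83 FPKM in HrasG12V mice 2276, 2278 and 2279. The genotypes did not overlap, and the HrasG12V values sat close together, although these 3 libraries differed widely for other members. Marker sums of some other cell types also separated the genotypes. The 5 endothelial markers summed to 111 to 127 FPKM in HrasG12V and 147 to 177 FPKM in WT mice. The B cell sum given above was also higher in each HrasG12V mouse, at 1.30 FPKM or more against at most 1.07 FPKM in WT mice. The 5 neutrophil markers summed to 21.2 to 132 against 0.805 to 3.86 FPKM, the 3 satellite cell markers to 4.33 to 5.21 against 3.11 to 3.71 FPKM, and the 5 white adipocyte markers, mostly *Fabp4*, to 774 to 817 against 401 to 704 FPKM. No marker of these lists was at 0 in every library, and the part of these cells in the *Egf* values was not tested. The means were 12.7 ± 0.330 FPKM in WT and 7.44 ± 0.369 FPKM in HrasG12V muscle (SD, n = 3 each), the latter at 58.6% of the WT level, with a log2 fold change of -0.76 (SE 0.13). The spread of *Egf* within a genotype, an SD of 0.056 on the log2 scale, was smaller than that of all but 0.674% of the genes tested, whose median SD was 0.33. Omitting any 1 of the 6 mice gave log2 fold changes between -0.80 and -0.73. The FPKM is 1 value per gene and does not tell the 9 transcripts apart.

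Over the 6 mice, 102 of the other 13358 genes tested (0.764%) had a Pearson's r above 0.95 with *Egf*. The 5 most alike were *Ap4b1* (r = 0.997), *Pcnx* (0.996), *Hlcs* (0.994), *Mir8104* (0.993) and *Hecw2* (0.991). *Pcnx*, for instance, was at 15.0 to 15.6 FPKM in WT and 8.80 to 9.57 FPKM in HrasG12V mice. *Mir8104*, a transcript too short for a firm FPKM, was listed at 0 in 2 of the HrasG12V mice. With 6 points that fall into the 2 genotypes, a high r says mainly that a gene separates them. Among the members, r with *Egf* was 0.57 for *Egfr*, 0.50 for *Erbb3*, -0.22 for *Erbb2*, -0.12 for *Hbegf* and -0.01 for *Nrg4*.

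The promoter windows of *Egf* and of its receptor *Egfr* are shown because they are the ligand gene whose genotypes separated and the receptor that this ligand binds. Each runs from 250 bases before to 50 bases after a transcription start, from RefSeq on GRCm38.p6. The table matched 7 of the 10 members. It held a pair of starts for *Egf*, of which the outer one is printed, chr3:129755273-129755572 on the minus strand, and 1 start for *Egfr*, chr11:16751953-16752252 on the plus strand. Capitals mark matches on either strand to 4 motifs that do not overlap here. The GC box, bound by Sp1 and its relatives, was searched as GGGCGG. The TATA box, which places the start of transcription, was searched as TATAAA. The site of the AP-1 factors, dimers of Fos and Jun proteins, was searched as TGANTCA. The site of the ETS factors, which include Etv5, was searched as CCGGAAG. AP-1 and ETS factors are known nuclear targets of ERK signalling.
Egf: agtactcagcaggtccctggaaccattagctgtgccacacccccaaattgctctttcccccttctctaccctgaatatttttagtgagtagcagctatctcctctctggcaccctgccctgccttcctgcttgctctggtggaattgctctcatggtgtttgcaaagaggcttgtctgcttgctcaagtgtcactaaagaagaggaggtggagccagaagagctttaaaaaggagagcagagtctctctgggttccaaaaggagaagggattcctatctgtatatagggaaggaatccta
Egfr: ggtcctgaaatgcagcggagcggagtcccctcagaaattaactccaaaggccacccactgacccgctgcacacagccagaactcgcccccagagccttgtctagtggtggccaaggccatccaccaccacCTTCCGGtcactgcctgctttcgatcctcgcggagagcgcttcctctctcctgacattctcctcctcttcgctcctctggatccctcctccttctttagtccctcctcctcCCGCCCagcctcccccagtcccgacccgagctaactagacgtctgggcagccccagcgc
The *Egf* window held 0 of the 4 motifs and 0 CG dinucleotides, at 49.0% G and C. The *Egfr* window held 1 ETS match and 1 GC box, with 15 CG dinucleotides and 62.3% G and C. Over all 32851 promoter windows of this length 35.7% held a GC box, 13.6% a TATA box, 7.81% an AP-1 match and 8.86% an ETS match, and the median was 7 CG dinucleotides. The inner *Egf* start, not printed, had 1 ETS match and 17 CG dinucleotides. FPKM do not say which start was used, and a match is not a shown binding site.

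*Hbegf*, heparin-binding EGF-like growth factor, was the other abundant ligand gene and varied more among mice than between genotypes. It was at 7.41, 10.4 and 13.1 FPKM in mice 2277, 2280 and 2281 of the WT group and at 14.0, 10.7 and 6.70 FPKM in HrasG12V mice 2276, 2278 and 2279. The highest and the lowest value of all 6 were both in HrasG12V mice. The means were 10.3 ± 2.86 FPKM in WT and 10.5 ± 3.68 FPKM in HrasG12V muscle (SD, n = 3 each), with a log2 fold change of 0.0011 (SE 0.33) that ran from -0.24 without mouse 2276 to 0.29 without mouse 2279.

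*Nrg4* was at 1.33, 1.31 and 1.73 FPKM in the WT mice in the same order. In HrasG12V mice 2276, 2278 and 2279 it was at 1.07, 2.46 and 1.11 FPKM. Mouse 2278 alone was above the WT range and both others were below it, so that the log2 fold change of -0.0061 (SE 0.35) became -0.37 without mouse 2278 and 0.19 without mouse 2276. Of the 5 brown adipocyte markers, *Ucp1* (35.8 FPKM), *Cidea* (9.33) and *Otop1* (0.888) were also highest in mouse 2278, while *Elovl3* and *Cox8b* were lowest there. The 5 summed to 675 to 2743 FPKM in HrasG12V and 1158 to 1235 FPKM in WT mice, a sum that is nearly all *Cox8b*, and *Ucp1* was listed at 0 in WT mouse 2281. Their part in the *Nrg4* values was not tested.

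*Tgfa*, the gene of transforming growth factor alpha, was measured at 0.0983, 0.288 and 0.101 FPKM in the WT and at 0.0479, 0.752 and 0.828 FPKM in HrasG12V mice 2276, 2278 and 2279. Mice 2278 and 2279 were above all WT mice and mouse 2276 below all of them. The means were 0.162 ± 0.108 FPKM in WT and 0.543 ± 0.430 FPKM in HrasG12V muscle (SD, n = 3 each), and the gene was too low to be tested. The mice with the higher *Tgfa* were those with the B and T cell transcripts given above, and the same mice were also highest in the neutrophil sum (132 and 51.6 FPKM) and the sum of 10 Schwann cell markers (375 and 448 against 87.4 to 261 FPKM). In a bulk tissue more cells of a type and more RNA per cell cannot be told apart, and the part of these cells in the *Tgfa* values was not tested.

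*Areg*, the amphiregulin gene, and *Nrg1*, the gene of the main nerve-derived neuregulin, were close to the lower end of the measured range. *Areg* was listed at 0 in WT mouse 2277 and was at 0.0348 and 0.0615 FPKM in the other WT mice and at 0.0143 to 0.0482 FPKM in HrasG12V mice. *Nrg1* was listed at 0 in WT mouse 2277 and HrasG12V mouse 2276. It was at 0.0108 and 0.0126 FPKM in the WT mice 2280 and 2281, and at 0.0979 and 0.0180 FPKM in HrasG12V mice 2278 and 2279. The genotypes overlapped for both. Motor neurons, which are known to make *Nrg1*, have their cell bodies outside the muscle, and the transcript in a muscle sample does not measure the protein that reaches it through the axon. The annotated *Nrg1* gene has 18 transcripts in GENCODE vM21, and the values here do not separate them.

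Among the receptors *Egfr* was the most abundant in every mouse. It was at 5.69, 7.19 and 6.95 FPKM in mice 2277, 2280 and 2281 of the WT group and at 3.07, 6.71 and 5.50 FPKM in HrasG12V mice 2276, 2278 and 2279. Mouse 2276 was the lowest of the 6, mouse 2279 was just below the WT range and mouse 2278 was within it. The means were 6.61 ± 0.805 FPKM in WT and 5.09 ± 1.86 FPKM in HrasG12V muscle (SD, n = 3 each), with a log2 fold change of -0.43 (SE 0.30). Without mouse 2276 the log2 fold change was -0.11, and without mouse 2278 it was -0.67, so its size rested on which HrasG12V mice were included. *Egfr* is known in muscle from connective tissue cells and satellite cells. The 5 fibroblast markers, of which none was at 0, summed to 1401 to 2907 FPKM in WT and 646 to 2513 FPKM in HrasG12V mice, and all 5 were lower in mouse 2276 than in every WT mouse. By this sum the mice ranked as by *Egfr* except that mice 2278 and 2281 changed places, a likeness looked for after the *Egfr* values were seen. Most of the sum is *Col1a1*, *Col3a1* and *Dcn*. The satellite cell sum went the other way and was higher in each HrasG12V mouse than in each WT mouse, as given above. The part of these cells in the *Egfr* values was not tested.

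*Erbb2*, the ligandless partner receptor, had means that lay close together. It was measured at 1.88, 1.87 and 1.47 FPKM in the WT and at 1.80, 1.75 and 1.91 FPKM in HrasG12V mice. The means were 1.74 ± 0.233 FPKM in WT and 1.82 ± 0.0794 FPKM in HrasG12V muscle (SD, n = 3 each), with a log2 fold change of 0.068 (SE 0.19), which changed sign with the library scaling and with the mouse left out. The genotypes overlapped.

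*Erbb3*, the neuregulin receptor of Schwann cells, was at 2.13, 2.14 and 2.23 FPKM in the WT mice, within a narrow range. In HrasG12V mice 2276, 2278 and 2279 it was at 1.03, 1.78 and 2.63 FPKM, so that 2 of the mice were below and 1 above all WT mice. The means were 2.16 ± 0.0528 FPKM in WT and 1.81 ± 0.803 FPKM in HrasG12V muscle (SD, n = 3 each), with a log2 fold change of -0.33 (SE 0.33) that was -0.64 without mouse 2279 and 0.00086 without mouse 2276. The 10 Schwann cell markers, none of them at 0, summed to 87.4, 261 and 112 FPKM in mice 2277, 2280 and 2281 of the WT group and to 129, 375 and 448 FPKM in HrasG12V mice 2276, 2278 and 2279. Among the HrasG12V mice *Erbb3* had the same order as that sum, while the WT mice had nearly the same *Erbb3* at sums that ran from 87.4 to 261 FPKM. The part of Schwann cells in the *Erbb3* values was not tested.

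*Erbb4*, a receptor for neuregulins and HB-EGF, was at 0.0115 to 0.0473 FPKM in WT and 0.0126 to 0.0208 FPKM in HrasG12V mice. It made up at most 0.443% of the summed receptor FPKM in any mouse.

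Set together, the receptor genes summed to 9.73 to 11.2 FPKM in WT mice, to 10.3 and 10.1 FPKM in HrasG12V mice 2278 and 2279 and to 5.92 FPKM in mouse 2276. *Egfr* held 51.8% to 65.5% of the sum over the 6 mice. In mouse 2276 *Erbb2* held 30.4%, against 13.8% to 19.3% in the other 5. The ligand genes summed to 21.9 to 27.4 FPKM in WT and 16.5 to 22.3 FPKM in HrasG12V mice. *Egf* held 59.6%, 51.3% and 45.1% of that sum in WT mice 2277, 2280 and 2281 and 31.8%, 34.4% and 47.5% in HrasG12V mice 2276, 2278 and 2279, so the shares overlapped although the *Egf* levels did not, through the spread of *Hbegf*.

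**Figure D2:**
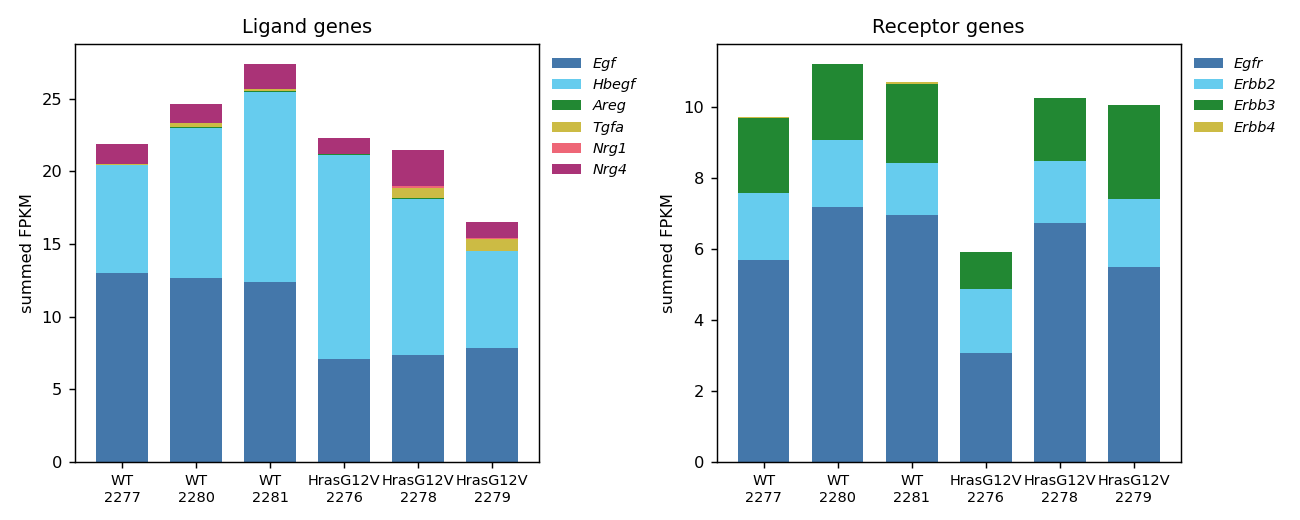
Summed FPKM (y axis, linear from 0) of the 6 ligand genes (left) and the 4 receptor genes (right), 1 stacked bar per mouse. *Egf* and *Hbegf* make up most of the ligand sum in every mouse, and mouse 2276 has the lowest receptor sum, 5.92 FPKM.

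In the comparison across genes, 1 of the 6 tested members (*Egf*) had an unadjusted limma p below 0.05 with a lower level in HrasG12V muscle, and 0 with a higher level. Of all genes tested 4.99% were lower and 5.18% higher by that limit. After Benjamini-Hochberg adjustment over the 13359 genes, 0 of the 6 members and 0.0599% of all genes tested were past 0.05 with limma. Each HrasG12V mouse was below each WT mouse for 1 of the 6 tested members and 10.4% of all genes tested, and above for 0 of the 6 and 8.11%. Because the members were chosen with this comparison known, nothing is read from these counts. The median log2 fold change of the 6 was -0.17, beside -0.03 over all genes tested.

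**Figure D3:**
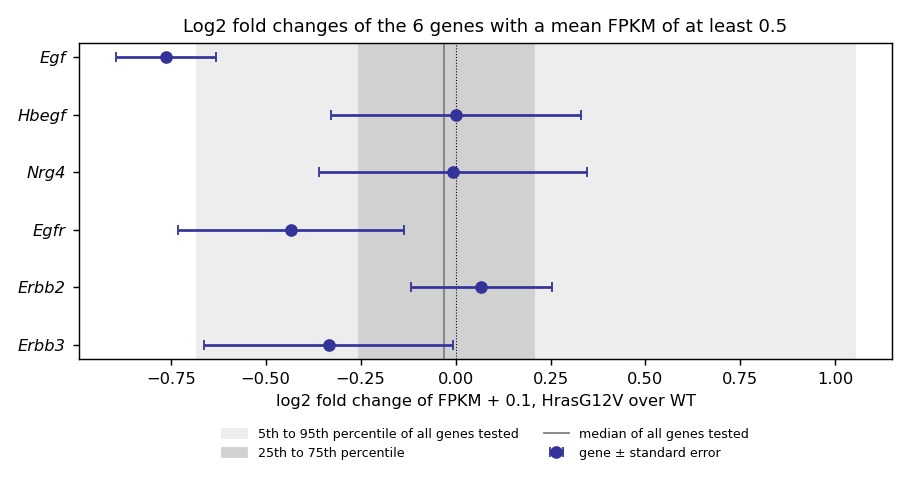
Log2 fold change (x axis, HrasG12V over WT, FPKM + 0.1) of the 6 members with a mean of at least 0.5 FPKM, with standard errors, over bands of the percentiles of all 13359 genes tested. *Egf* at -0.76 lies below the 5th percentile of all genes, -0.68, and the other 5 members lie between -0.43 and 0.068.

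The other genes of the pathway were taken from 6 lists by their known roles, 74 symbols in all. *Erbin* was not found under that name, and its other symbol *Erbb2ip* was on the list too, which left 73 genes, of which 67 were tested. By the unadjusted limma p, 5 of the 67 were higher and 4 lower in HrasG12V muscle, 1 of them (*Chrne*) past the adjusted p, with 5.18%, 4.99% and 0.0599% as the shares of all genes. The 5 include *Gdnf*, which entered only through its level in the HrasG12V mice. These counts moved with the mice included, and so did the shares of all genes. With mouse 2276 left out, 17 of the 67 (25.4%) passed the unadjusted and 5 (7.46%) the adjusted limit, below the 29.8% and 9.66% of all genes tested in that fit. Without mouse 2279, 16 (23.9%) passed the unadjusted p, beside 11.5% of all genes. Without WT mouse 2277 or 2281 it was 4 each (5.97%), beside 4.75% and 4.54%.

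Of 9 genes for ligand shedding, 1 was lower by the unadjusted p and 0 were higher, beside 4.99% and 5.18% of all genes. This was *Adam9*, a membrane metalloprotease. It was at 22.1, 19.8 and 22.7 FPKM in WT mice 2277, 2280 and 2281. In HrasG12V mice 2276, 2278 and 2279 it was at 12.8, 16.7 and 15.0 FPKM. Each HrasG12V mouse was thus below each WT mouse, which held for 10.4% of all genes tested. The difference was -0.54 ± 0.17 SE on the log2 scale (adjusted p = 0.433 by limma). The call by the unadjusted p was lost without WT mouse 2277 or 2281 and when every library was scaled to an equal FPKM sum. *Adam17*, the main sheddase of TGF-alpha, amphiregulin and HB-EGF, was at 7.62 to 11.7 FPKM in HrasG12V and 11.1 to 11.7 FPKM in WT mice and did not pass (-0.32 ± 0.19 SE on the log2 scale). *Adam10*, which is known to cut the EGF precursor, was at 5.12, 16.5 and 15.8 FPKM in HrasG12V mice and 11.7 to 13.4 FPKM in WT mice.

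Of 21 adaptors and effectors that bind activated receptors, *Sos2*, an exchange factor that loads Ras with GTP, was lower by the unadjusted p, and 0 were higher. A count of 1 in 21 is close to the 4.99% of all genes tested that were lower, so it is no result about this list. It was at 18.2, 16.8 and 20.4 FPKM in mice 2277, 2280 and 2281 of the WT group and at 9.11, 11.6 and 15.0 FPKM in HrasG12V mice 2276, 2278 and 2279 (-0.65 ± 0.22 SE on the log2 scale, adjusted p = 0.446 by limma). This call was lost without WT mouse 2277 or 2281 or HrasG12V mouse 2278 and with equal FPKM sums. *Grb2*, the adaptor that carries Sos to the receptor, was at 27.4 to 41.7 FPKM in HrasG12V and 26.1 to 31.9 FPKM in WT mice. The median log2 fold change of the 21 was -0.18.

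Of 16 genes that restrain or turn over the receptors, *Tob1* and *Tob2* were lower by the unadjusted p and 0 were higher, beside 4.99% and 5.18% of all genes. *Tob1*, an antiproliferative protein first known as a binding partner of ErbB2, stood at 115, 120 and 116 FPKM in the 3 WT mice, against 82.0, 75.3 and 62.3 FPKM in HrasG12V mice 2276, 2278 and 2279. The difference was -0.68 ± 0.20 SE on the log2 scale (adjusted p = 0.410 by limma), and the call by the unadjusted p held with each mouse left out in turn. Its relative *Tob2* was at 60.7 ± 7.88 FPKM in WT and 41.6 ± 7.75 FPKM in HrasG12V muscle (SD, n = 3 each, adjusted p = 0.481 by limma). The *Tob2* call by the unadjusted p held in 2 of the 6 sets of 5 mice and was lost with quantile normalization and with equal FPKM sums. *Errfi1*, a feedback inhibitor that binds the EGF receptor kinase, was at 33.1 to 44.1 FPKM in WT and 26.7 to 36.7 FPKM in HrasG12V mice and did not pass. *Lrig1*, which promotes loss of ErbB receptors from the membrane, overlapped between genotypes at 15.4 to 20.7 FPKM in HrasG12V and 19.3 to 25.1 FPKM in WT mice.

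Of 13 tested early response genes, which growth factor signalling is known to induce within minutes, *Junb* and *Myc* were higher by the unadjusted p and 0 were lower, beside the same shares. *Myc* was at 2.63 to 3.38 FPKM in WT and at 3.49, 4.64 and 5.95 FPKM in HrasG12V mice (0.64 ± 0.23 SE on the log2 scale, adjusted p = 0.468 by limma). *Junb* overlapped between genotypes, at 29.0, 19.5 and 11.7 FPKM in HrasG12V mice 2276, 2278 and 2279 and 7.38 to 12.4 FPKM in WT mice (1.05 ± 0.37 SE on the log2 scale, adjusted p = 0.456 by limma). Each of these calls by the unadjusted p held in 2 of the 6 sets of 5 mice. Both were lost without moderation, and that of *Myc* also with equal FPKM sums. *Fos* and *Egr1* differed several-fold among the WT mice, at 12.5 to 76.4 and 10.7 to 39.5 FPKM, and did not pass.

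Of 9 genes that neuregulin is known to induce or that mark the synapse and the spindle, *Chrne* rose past the adjusted p. *Etv5* was higher by the unadjusted p and 0 were lower. *Gdnf* also passed the unadjusted p but is given as a description. Among all genes tested, 5.18% were higher and 4.99% lower by the unadjusted p, and 0.0599% passed the adjusted p. *Chrne*, the adult subunit of the muscle acetylcholine receptor, was at 219, 97.1 and 109 FPKM in HrasG12V mice 2276, 2278 and 2279 and 12.4 to 13.4 FPKM in WT mice. Its limma adjusted p = 0.044 ran from 0.000825 to 0.382 over the alternatives, while its log2 fold change of 3.35 (SE 0.33) lay between 2.99 and 3.58 with each mouse left out. The adjusted call was lost without any 1 of mice 2277, 2280, 2281, 2278 and 2279 and held without mouse 2276. With all 6 mice it was also lost with a pseudocount of 1, without the filter on low values, with median centring and without moderation. *Etv5*, an ETS factor of synaptic nuclei, was at 33.9, 20.8 and 25.2 FPKM against 8.28 to 9.0 FPKM in WT mice (1.58 ± 0.21 SE on the log2 scale, adjusted p = 0.198 by limma). *Gdnf*, a trophic factor for motor neurons, was at 0.963, 0.909 and 2.59 FPKM in the HrasG12V mice against 0.144 to 0.337 FPKM. It reached the mean of 0.5 FPKM only through the HrasG12V mice and so could enter the comparison only because it was high there. *Egr3*, an early response gene known for its role in the muscle spindle and a member of both lists, reached 2.37 and 2.15 FPKM in mice 2278 and 2279 but 0.237 FPKM in mouse 2276, against 0.383 to 0.927 FPKM in the WT group. It did not pass with all 6 mice and passed the adjusted limit without mouse 2276 (limma adjusted p = 0.0443). In that fit *Chrne*, *Etv5* (limma adjusted p = 0.0053), *Tob1* (0.0251) and *Myc* (0.0496) passed too, as did 9.66% of all genes tested.

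**Figure D4:**
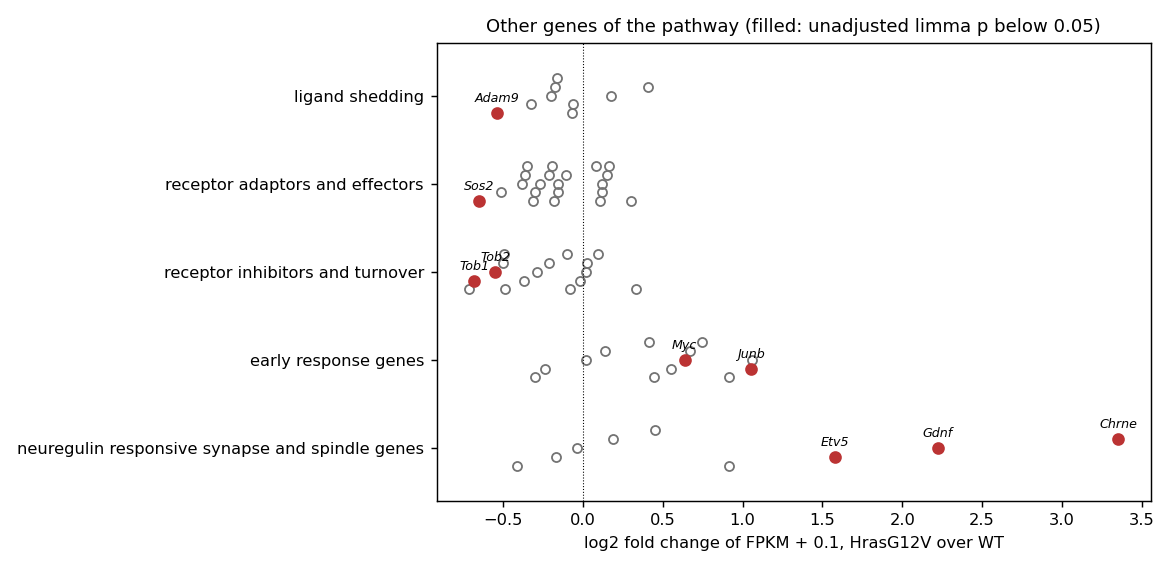
Log2 fold change (x axis, HrasG12V over WT, FPKM + 0.1) of the tested genes of the 5 pathway lists that held any, 1 point per gene and list, filled and named where the unadjusted limma p was below 0.05. Filled points in the lists for shedding, adaptors and inhibitors lie at -0.54 to -0.68 and those in the early response and synapse lists at 0.64 to 3.35.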

How the data were processed

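Total RNA of 6 gastrocnemius muscles was made into stranded mRNA libraries, 1 per mouse. Per the labels, reads were processed with bcl2fastq, TopHat, Cufflinks and Cuffnorm on GRCm38 (mm10). The deposited values are FPKM that the authors scaled between libraries with Cuffnorm, 1 per gene symbol. For tool versions and the annotation used, nothing is given in the sources used here. Counts were not used here. In pairs of libraries at most 6.01% of the ratios of values under 0.2 FPKM fell into 1 interval of 0.02 on the log2 scale, so whole reads were not recovered, the reads behind each value are not known beyond the approximate depth per sample in the study methods, and precision is known only from the spread between mice. Sex, litter and batch are absent from the labels, and p-values measure only the spread between these mice.

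Genes with a mean of at least 0.5 FPKM were kept, 0.1 was added, and log2 values were fitted in R 4.3.3 using limma 3.58.1 (two-sided moderated test with an intensity trend, limit 0.05, Benjamini-Hochberg over all genes tested, no covariate). The fit was run on simulated data with independent noise, of the same spread in both genotypes for each gene. The real libraries were not alike, so that run does not show how the fit behaves on them. Tables were made with pandas 2.3.3 and numpy 2.4.6 under Python 3.11.15, and figures with matplotlib 3.10.9. The members, pathway lists and markers were chosen with earlier results of these data known. All members are named, and of each pathway list the genes past the unadjusted p, up to 4, with the 5 genes most like *Egf*. *Adam10*, *Adam17*, *Grb2*, *Errfi1*, *Lrig1*, *Fos*, *Egr1* and *Egr3* were named after their values were seen. Alternatives were other pseudocounts, filters, scalings and moderation, leaving out each mouse and a covariate for Y linked transcripts. Promoters came from RefSeq and gene positions from GENCODE vM21, both on GRCm38.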

Additional observations from a re-analysis of the deposited data

How the results depend on the processing

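Over the alternatives run, 118 values kept close to those reported and 22 moved. The log2 fold change of *Egf* was -0.70 with a pseudocount of 1, more than its small spread from the reported -0.76, and kept its sign under every alternative run. The other 5 tested members moved by less than their spread between mice under each alternative, though *Hbegf*, *Nrg4*, *Erbb2* and *Erbb3* changed sign with some mice left out, and *Hbegf*, *Nrg4* and *Erbb2* with some scalings or other settings. The number of pathway genes past the unadjusted p was 9, fell to 5 when every library was scaled to an equal FPKM sum, and ran from 4 to 17 with each mouse left out. The share of all genes past it moved too, from 10.2% to 5.33% with equal sums and to 4.54% to 29.8% with each mouse left out. The number past the adjusted p was 1. It was 0 with a pseudocount of 1, without a filter, with median centring and without moderation, 2 with quantile normalization, and 0 to 5 with each mouse left out. The 5 came without mouse 2276, where 9.66% of all genes passed, more than the 7.46% of the pathway genes. The cause was not tested. With each mouse left out, 1 to 3 of all 10 members, untested ones included, lay lower in all HrasG12V than in all WT mice (*Egf* each time) and 0 to 2 higher (*Tgfa* and *Nrg1* without mouse 2276, with *Nrg1* listed at 0 in a WT mouse). Over the genes tested, which leave out 4 of the members, the shares were 12.7% to 28.3% and 9.95% to 19.9%. The 4 members below a mean of 0.5 FPKM were not tested.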
